A study of Mus musculus with 6 samples.

Results

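The genes of sterol synthesis and its control by sterol regulatory element-binding proteins (SREBPs) were examined as a set of 30 genes, out of 47729 counted by RNA-seq. These members were chosen by name for their place in the pathway. They and the lists of other genes below were picked with earlier results of these data known. The shares of them that passed a test are therefore a description. The libraries came from immortalized bone marrow-derived macrophages (BMMs), 3 from *Aif1*-/- and 3 from WT mice of the C57BL/6J strain. In both genotypes, marrow of 8-week-old males was differentiated into macrophages, the cells were immortalized with SV40 large T-antigen, kept in serum and the growth factor CSF-1, and taken at passages 3 to 5. The study describes the 3 libraries of a genotype as independent animals, while the sample labels say only that they are replicates, so p-values measure the spread between these 6 libraries. The *Aif1*-/- mice lack the gene in every cell, and whether each library is a separately immortalized line is not given in the sources used here.

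Cholesterol is built from acetyl-CoA through the mevalonate pathway, which yields farnesyl pyrophosphate, and through squalene and a series of sterols. The genes of this route are switched on together when the sterol of the endoplasmic reticulum is low: SCAP then carries SREBP2, the product of *Srebf2*, to the Golgi to be cut and released, and INSIG proteins hold the complex back when sterol is plentiful. A related factor, SREBP1, mainly drives fatty acid synthesis, and macrophages are known for handling large loads of cholesterol, which they esterify and export.

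Of the 30 genes, 28 passed the filter on low counts and were tested. *Scd1* and *Scd2* did not pass it. By edgeR's quasi-likelihood test, with Benjamini-Hochberg adjustment over all 17406 genes tested and a threshold of 0.05, 10 of 28 members changed (35.7%). Of all tested genes, 18.6% passed in either direction. Among the members, 5 were higher in *Aif1*-/- BMMs (17.9% of 28, against 8.04% of all tested genes) and 5 were lower (17.9% of 28, against 10.5% of all tested genes). These counts include *Elovl6*, which passed the filter through its WT libraries alone and so had to differ. Without it, 9 of 27 members changed (33.3%), 5 of them higher (18.5%) and 4 lower (14.8%). The median log2 fold change, *Aif1*-/- minus WT, was −0.03 over the 28 members and −0.0035 over all tested genes. The set did not shift to one side, and 27 of 28 members had a log2 fold change under 0.6 in size. The exception was *Elovl6*. The members were also compared by whether the 3 libraries of one genotype all lay above or below the 3 of the other. Without *Elovl6*, this held for 12 of 27 members (44.4%), 6 of them higher and 6 lower, against 35.7% of all tested genes (16.5% higher and 19.1% lower). DESeq2 called 5 of these 27 members higher and 3 lower, against 8.66% and 10.8% of all genes it tested, and 19.4% in either direction.

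The genotype was checked first. *Aif1* itself had 9 raw counts over the 3 *Aif1*-/- libraries, against 616 over the 3 WT libraries, 53.9-fold lower after scaling for depth (95% counting interval 28.2 to 118). Counts assigned to genes were 17707986 to 26486393 per library in *Aif1*-/- BMMs and 23253869 to 29314253 in WT BMMs. WT replicate 3 stood apart from the other WT libraries, with log2 CPM distances of 71.9 and 83.8 to them, while the largest distance between *Aif1*-/- libraries was 46.9 and the smallest between genotypes 101.7. Reads that matched no gene made up 33.6% to 35.7% of counted reads in *Aif1*-/- libraries and 32.4%, 40.4% and 25.5% in WT replicates 1, 2 and 3. All 8 macrophage markers, *Csf1r* and *Lyz2* among them, were tested. Their summed normalized counts were 119492 to 121463 in *Aif1*-/- libraries and 82506 to 99797 in WT libraries. Of the 8, 6 were higher (75%, against 8.04% of all tested genes) and 1 was lower (12.5%, against 10.5%). *Cd14* was the lower marker (log2 fold change −0.40, edgeR adjusted p = 0.0456), and *Cd68* did not pass (0.005, edgeR adjusted p = 0.976). Markers of other cells were few. Of 6 granulocyte markers, 4 were at 0 in every library (*Ly6g*, *S100a9*, *Elane* and *Mpo*), and the list summed to 9.22 to 18.6 normalized counts in *Aif1*-/- libraries and 0 to 23.1 in WT libraries. The 5 dendritic cell markers summed to 55.9 to 101 in *Aif1*-/- libraries and 42.2 to 53.5 in WT libraries, without overlap, and the 4 osteoclast markers to 6.66 to 57.9 in *Aif1*-/- libraries and 9.05 to 36.5 in WT libraries (*Calcr* at 0 in every library). The 5 fibroblast markers summed to 0 to 25.0 in *Aif1*-/- libraries, the most in replicate 3, and 0 to 6.79 in WT libraries (*Dcn* and *Lum* at 0). The 3 T cell (*Cd3e* and *Cd3g* at 0) and 4 adipocyte markers (*Lep* and *Cidec* at 0) summed to at most 2.66 in an *Aif1*-/- library and 4.02 in a WT library. The 5 megakaryocyte and platelet genes summed to 2001 to 2094 normalized counts in *Aif1*-/- libraries and 932 to 1049 in WT libraries. Most of this was *Pf4*, with means of 1745 in *Aif1*-/- and 892 in WT. *Pf4*, *Ppbp* and *Treml1* were higher (75% of 4 tested, against 8.04% of all tested genes). This share includes *Ppbp*, with raw counts of 18, 13 and 25 in *Aif1*-/- libraries, against 3, 0 and 0 in WT libraries. *Ppbp* passed the filter on low counts through its *Aif1*-/- libraries alone and so had to differ. *Itga2b* had the other sign and did not pass (log2 fold change −0.49, edgeR adjusted p = 0.606), and *Gp9* was not tested. The part of these shifts in the results below was not tested. In bulk samples, fewer cells of a kind and less RNA per cell cannot be told apart.

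The bases upstream of the member genes were read from RefSeq (build GRCm38.p6) to show what the promoters share. A window of 250 bases before an annotated start was found for 24 of the 30 members. The pentamer CCAAT, the box bound by the factor NF-Y, was searched on both strands, on which it reads ATTGG in the other direction. It was present in 20 of 24 members (83.3%), against 37.5% of 27025 genes with such a window. Of 41 matches in the members, 27 lay within 100 bases of the start. The sterol regulatory element, searched on both strands as TCACNCCAC, was present in 1 of 24 members, *Hmgcs1*, and in 1.22% of all genes with a window. Only this spelling was searched. Both motifs were present together in the window of 0.392% of all genes. In these 4 stretches, written 5′ to 3′ along the gene, matches are in capitals. They are shown because *Hmgcs1* held both motifs, *Srebf2* is the factor gene itself, *Fasn* is a member that was lower, and *Mvk* had the most CCAAT matches of any member, 5. None of the 4 stretches overlapped an annotated exon.
Hmgcs1 (chr13:119690154-119690238, plus strand): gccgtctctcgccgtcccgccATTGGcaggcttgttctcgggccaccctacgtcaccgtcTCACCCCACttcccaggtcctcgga
Srebf2 (chr15:82147109-82147168, plus strand): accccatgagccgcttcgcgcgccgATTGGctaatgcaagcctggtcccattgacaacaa
Fasn (chr11:120824588-120824657, minus strand): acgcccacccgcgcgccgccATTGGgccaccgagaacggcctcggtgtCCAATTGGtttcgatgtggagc
Mvk (chr5:114444079-114444268, plus strand): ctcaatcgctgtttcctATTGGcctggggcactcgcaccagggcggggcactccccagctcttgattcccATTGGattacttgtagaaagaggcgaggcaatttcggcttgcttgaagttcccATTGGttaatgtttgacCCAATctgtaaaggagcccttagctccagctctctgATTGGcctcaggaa

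In *Hmgcs1*, the TCACNCCAC match lay 137 to 129 bases before the start and the CCAAT match of the printed stretch 176 to 172 bases before it. In *Fasn*, a pair of matches on opposite strands overlap in the run CCAATTGG. Members with a match were found among those that were higher (*Hmgcs1*, *Idi1*, *Cyp51*, *Srebf2*), lower (*Fasn*, *Hsd17b7*) and not called (*Mvk*, *Insig2*, *Msmo1*), while the windows of 4 of 24 members, *Elovl6*, *Acaca*, *Scap* and *Acat2*, held neither motif. The only window of *Acaca* (chr11:84195188-84195437) lies inside the gene, whose annotated span begins at 84129672. The bases before that first position were thus not searched. The only *Dhcr7* window with a match (chr7:143829964-143830213) also lies inside its gene, whose span begins at 143823145. So does the only window of *Tm7sf2* (chr19:6067851-6068100, minus strand, with a span that ends at 6068373). Windows of some other members, such as *Msmo1* and *Idi1*, lie partly inside the gene. All of these count among the 20 members with a CCAAT match. A match is a run of letters and not evidence of binding.

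The mevalonate genes were described first, in the order of the route. Of 8 tested, 2 were higher in *Aif1*-/- BMMs (25%, against 8.04% of all tested genes). None was lower, against 10.5% of all tested genes, and the other 6 did not pass the threshold. The 2 that rose were *Hmgcs1* and *Idi1*. *Hmgcs1* encodes the cytosolic HMG-CoA synthase, which makes the substrate of the pathway's rate-limiting step. Its normalized counts, raw counts scaled to a common library size, were 1737, 1731 and 1691 in *Aif1*-/- libraries, against 1452, 1145 and 1438 in WT libraries. Every *Aif1*-/- library was above every WT library, and WT replicate 2 was the lowest of all. The log2 fold change was 0.36 (SE 0.09, edgeR adjusted p = 0.0247). *Idi1* encodes the isomerase that makes dimethylallyl pyrophosphate. It had 668, 662 and 581 normalized counts in *Aif1*-/- libraries, against 533, 463 and 503 in WT libraries, with no overlap and a log2 fold change of 0.35 (SE 0.10, edgeR adjusted p = 0.0340). These calls needed all 3 *Aif1*-/- libraries. Without *Aif1*-/- replicate 1, 2 or 3, the edgeR adjusted p of *Hmgcs1* was 0.0995, 0.0979 and 0.0797, and that of *Idi1* was 0.172, 0.154 and 0.0502. *Idi1* also missed the threshold without WT replicate 2 (edgeR adjusted p = 0.0566).

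*Mvk*, the mevalonate kinase gene, had the largest log2 fold change of these 8 genes in size and the other sign. It had 201, 228 and 259 normalized counts in *Aif1*-/- libraries, against 310, 276 and 421 in WT libraries. The genotypes did not overlap, but the WT libraries were spread widely, with the highest value in WT replicate 3. The log2 fold change of −0.55 (SE 0.17) missed the threshold (edgeR adjusted p = 0.0524), and DESeq2 put it past the threshold (adjusted p = 0.0232). It passed under 8 of 14 alternatives, among them leaving out WT replicate 2 (edgeR adjusted p = 0.0146). Without WT replicate 3 the log2 fold change was −0.35 (edgeR adjusted p = 0.0694).

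The other 5 genes had overlapping groups and log2 fold changes of −0.12 to 0.14. They were *Acat2*, which encodes the cytosolic thiolase that starts the route, *Pmvk* and *Mvd*, whose enzymes follow mevalonate kinase, and *Fdps* and *Ggps1*, whose enzymes make the farnesyl and geranylgeranyl pyrophosphates. *Acat2* had 623, 618 and 606 normalized counts in *Aif1*-/- libraries, against 622, 490 and 654 in WT libraries. *Pmvk* had the widest spread of the *Aif1*-/- libraries among these genes, with 372, 425 and 304 normalized counts, against 346, 340 and 313 in WT libraries. *Mvd* had 205 to 235 normalized counts in *Aif1*-/- libraries and 194 to 268 in WT libraries. *Fdps* was low throughout, with 124 to 138 normalized counts in *Aif1*-/- libraries and 104 to 166 in WT libraries. It shares 26.7% of its exon bases with another gene on the same strand, *Gm43738*, and reads from there cannot be assigned to either. The 95% intervals of the differences of the 5 genes reached from −0.51 to 0.44 in all.

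Between squalene and cholesterol, 11 genes were tested. A single gene was higher, another was lower, and 9 stayed short of the threshold. The 18.2% called was near the 18.6% of all tested genes. *Cyp51*, which encodes the lanosterol 14-alpha-demethylase, was higher. It had 1153, 1080 and 1003 normalized counts in *Aif1*-/- libraries, against 908, 760 and 903 in WT libraries, without overlap and with a log2 fold change of 0.33 (SE 0.09, edgeR adjusted p = 0.0341). *Hsd17b7*, whose product reduces the 3-keto group formed during C4 demethylation, was lower. It had 520, 514 and 574 normalized counts in *Aif1*-/- libraries, against 679, 623 and 670 in WT libraries, also without overlap. The log2 fold change of −0.29 (SE 0.09) was close to the threshold (edgeR adjusted p = 0.0495), and by DESeq2 the adjusted p was 0.0574. Neither call held without any one *Aif1*-/- library, while over the 14 alternatives the log2 fold change stayed at 0.26 to 0.39 for *Cyp51* and −0.34 to −0.26 for *Hsd17b7*. Without *Aif1*-/- replicate 1, 2 or 3, the edgeR adjusted p of *Cyp51* was 0.180, 0.121 and 0.0597, and that of *Hsd17b7* was 0.233, 0.236 and 0.0938. Without WT replicate 1 the values were 0.0578 for *Cyp51* and 0.133 for *Hsd17b7*, and without WT replicate 2 that of *Cyp51* was 0.0505.

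*Lss*, the lanosterol synthase gene, was the third gene of this group whose genotypes did not overlap. It had 761, 819 and 758 normalized counts in *Aif1*-/- libraries, against 853, 838 and 947 in WT libraries, with a log2 fold change of −0.17 (SE 0.08) that did not pass (edgeR adjusted p = 0.207). The remaining 8 genes had overlapping genotypes. *Fdft1*, which encodes squalene synthase, had 489, 555 and 533 normalized counts in *Aif1*-/- libraries, against 470, 474 and 518 in WT libraries. *Sqle*, which encodes squalene epoxidase, an early control point of the sterol branch, had 1709, 1609 and 1624 normalized counts in *Aif1*-/- libraries, against 1642, 1335 and 1566 in WT libraries. Neither gene changed by the test, with log2 fold changes of 0.11 (95% interval −0.11 to 0.32) and 0.12 (95% interval −0.07 to 0.31).

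The other genes of the later steps did not pass the test. *Msmo1* and *Nsdhl*, whose enzymes act with HSD17B7 in C4 demethylation, had log2 fold changes of −0.03 (95% interval −0.21 to 0.15) and −0.12 (95% interval −0.38 to 0.13). *Ebp*, the sterol isomerase gene, was at −0.03 (95% interval −0.21 to 0.15), and *Sc5d*, the lathosterol oxidase gene, at −0.01 (95% interval −0.22 to 0.20). *Dhcr7*, whose enzyme makes cholesterol from 7-dehydrocholesterol, was at 0.08 (95% interval −0.18 to 0.33). *Tm7sf2*, a sterol reductase gene, was the lowest of the route, with 76.0, 103 and 89.5 normalized counts in *Aif1*-/- libraries, against 74.4, 95 and 54.9 in WT libraries, and had the widest interval (−0.29 to 0.79). It shares 12.1% of its exon bases with *Vps51* on the same strand.

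Added up, the 19 mevalonate and sterol genes gave 13731, 13439 and 12950 normalized counts in *Aif1*-/- libraries, against 13290, 11728 and 13493 in WT libraries. The mean was 4.17% higher in *Aif1*-/- BMMs and the genotypes overlapped. Only WT replicate 2 lay well below the others.

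**Figure D1:**
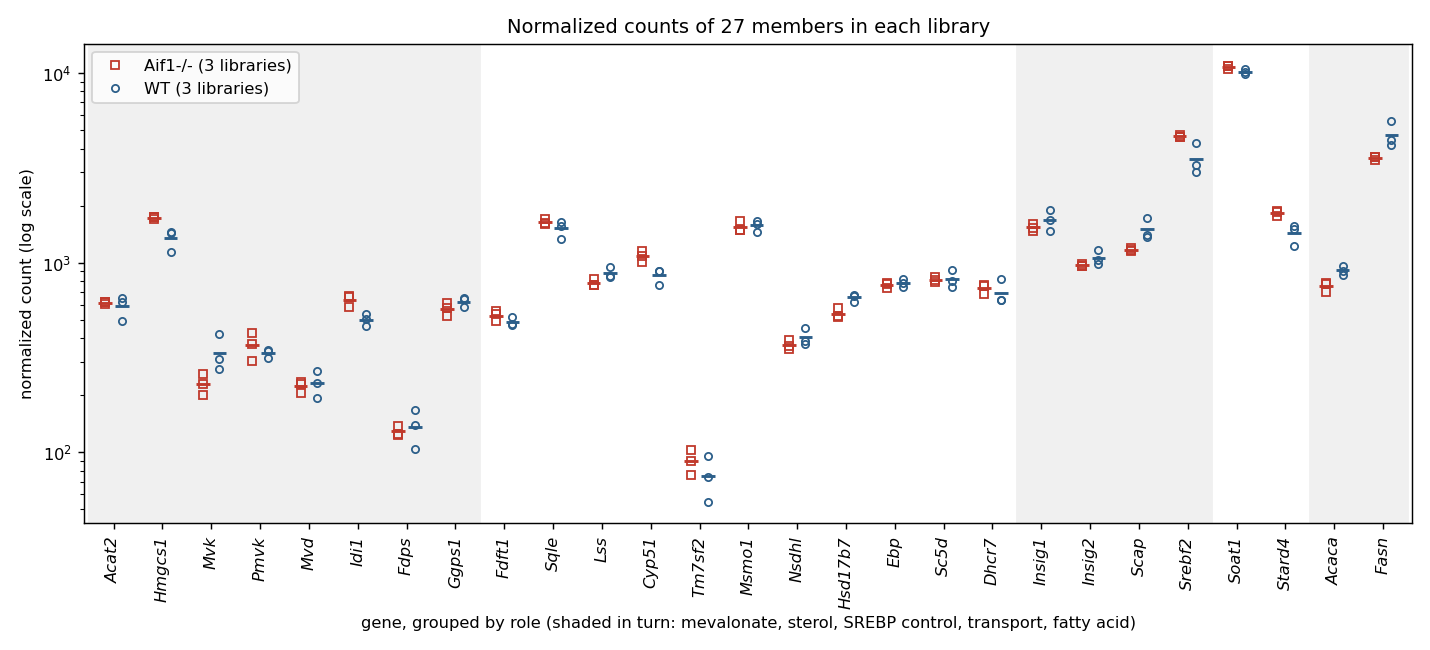
Normalized counts (log scale) of 27 members, all but *Elovl6*, *Scd1* and *Scd2*, grouped by role. Squares are the 3 *Aif1*-/- libraries, circles the 3 WT libraries, and short lines the group means. *Hmgcs1*, *Idi1*, *Cyp51*, *Srebf2*, *Stard4* and *Soat1* had every *Aif1*-/- library above the WT libraries. *Scap*, *Hsd17b7*, *Acaca*, *Fasn*, *Mvk* and *Lss* had every one below. Of these, *Soat1*, *Mvk* and *Lss* did not pass the edgeR threshold. The WT libraries were spread more widely (median coefficient of variation 5.48% in *Aif1*-/- and 10.5% in WT).

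WT replicate 2 was the lowest WT library in 22 of these 27 members (81.5%), against 45.8% of the 12385 tested genes at or above the lowest member's average level. It was also the library with the largest share of reads outside genes. WT replicate 3 was the highest WT library in 14 of 27 members (51.9%), against 46.2% of those genes. The median coefficient of variation over the 12385 genes was 4.44% in *Aif1*-/- libraries and 10.7% in WT libraries, so the wider WT spread was not particular to the sterol genes.

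The 4 SREBP control genes did not move together. *Srebf2* was higher, *Scap* was lower, and *Insig1* and *Insig2* did not pass the threshold. *Srebf2*, the gene of the factor that drives the pathway, had 4607, 4716 and 4623 normalized counts in *Aif1*-/- libraries, against 3287, 3018 and 4255 in WT libraries. The *Aif1*-/- libraries were nearly equal, and the highest WT library, replicate 3, was still below them, for a log2 fold change of 0.40 (SE 0.11, edgeR adjusted p = 0.0318). *Scap*, the gene of its escort protein, had 1191, 1153 and 1172 normalized counts in *Aif1*-/- libraries, against 1406, 1363 and 1723 in WT libraries. The log2 fold change was −0.35 (SE 0.09, edgeR adjusted p = 0.0260), again without overlap. Without *Aif1*-/- replicate 1, 2 or 3, the edgeR adjusted p of *Srebf2* was 0.0953, 0.113 and 0.0992, and that of *Scap* was 0.0975, 0.124 and 0.107. *Srebf2* also missed the threshold without WT replicate 1 (0.137) or 2 (0.0513). Without WT replicate 3, the library that stood apart, *Srebf2* had a log2 fold change of 0.57 and an adjusted p of 6.78e-06, and *Scap* one of −0.23 and an adjusted p of 0.0130.

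*Insig1* is itself a target of SREBP2 and encodes a protein that retains the complex in the endoplasmic reticulum. It had 1603, 1526 and 1475 normalized counts in *Aif1*-/- libraries, against 1675, 1464 and 1896 in WT libraries. The genotypes overlapped and the log2 fold change was −0.13 (95% interval −0.34 to 0.08, edgeR adjusted p = 0.436). *Insig2*, its paralog, had 960, 960 and 986 normalized counts in *Aif1*-/- libraries, against 1163, 1030.0 and 979 in WT libraries, and a log2 fold change of −0.13 (95% interval −0.31 to 0.06, edgeR adjusted p = 0.377). The intervals leave room for a fall of −0.31 on the log2 scale in either gene.

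Because the pair that changed went in opposite directions, their ratio within each library was set out, which does not depend on the scaling between libraries. Per kilobase of exon, *Srebf2* over *Scap* was 4.01, 4.24 and 4.09 in *Aif1*-/- libraries, against 2.42, 2.29 and 2.56 in WT libraries. The means were 4.11 ± 0.117 in *Aif1*-/- and 2.43 ± 0.132 in WT (SD, n = 3 each), and the spread within each genotype was small beside the gap. The ratio combines values already given above and carries no separate test. *Srebf2* over *Insig1* was 1.31 ± 0.0601 in *Aif1*-/- and 0.90 ± 0.0616 in WT (SD, n = 3 each), also without overlap. *Insig1* over *Insig2* was 1.78 ± 0.098 in *Aif1*-/- and 1.80 ± 0.328 in WT (SD, n = 3 each), with the WT values on both sides of the *Aif1*-/- values. *Srebf1*, which is not among the 30 genes, encodes SREBP1. It had 1589, 1654 and 1660 normalized counts in *Aif1*-/- libraries, against 1678, 1763 and 2673 in WT libraries, with a log2 fold change of −0.32 that did not pass (SE 0.15, edgeR adjusted p = 0.202). Without WT replicate 3, the highest library, it was −0.07.

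**Figure D2:**
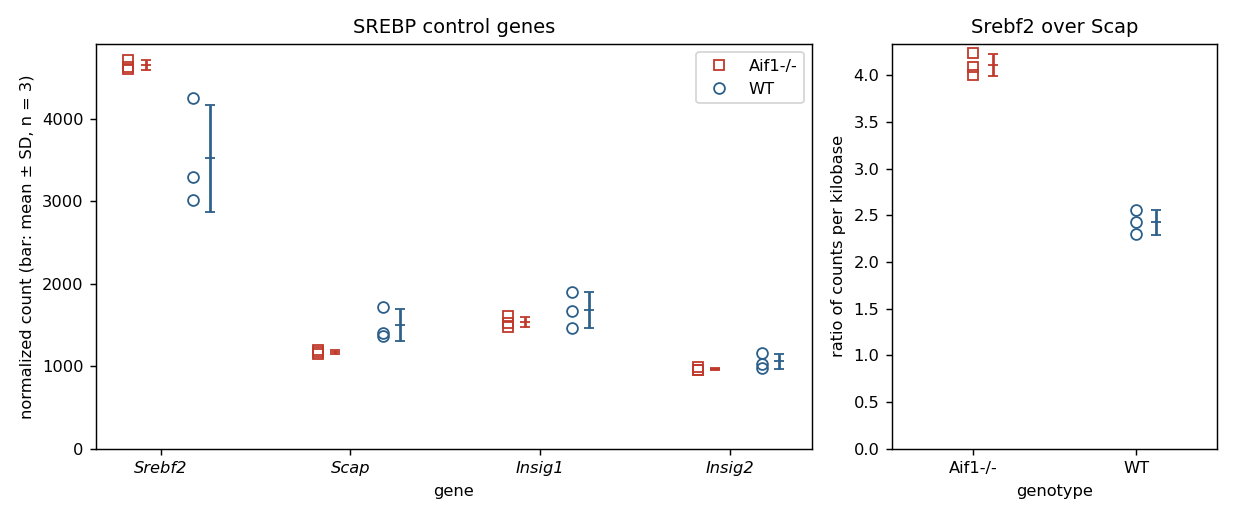
Left, normalized counts of the 4 SREBP control genes in each library, with the mean ± SD (n = 3) beside the points. Right, the ratio of *Srebf2* to *Scap* counts per kilobase of exon in each library. Squares are *Aif1*-/- and circles WT. The ratio was 4.01 to 4.24 in *Aif1*-/- libraries and 2.29 to 2.56 in WT libraries.

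Of the 2 genes of sterol transport and esterification, *Stard4* was higher. It encodes a soluble carrier that moves cholesterol between membranes and, like the synthesis genes, is a target of SREBP2. It had 1856, 1865 and 1758 normalized counts in *Aif1*-/- libraries, against 1563, 1229 and 1509 in WT libraries, without overlap. The log2 fold change was 0.35 (SE 0.09, edgeR adjusted p = 0.0256). Without *Aif1*-/- replicate 1, 2 or 3, the adjusted p was 0.107, 0.110 and 0.0678, and it stayed under the threshold without any single WT library. *Soat1*, the gene of the macrophage enzyme that esterifies cholesterol for storage in lipid droplets, had 10931, 10892 and 10523 normalized counts in *Aif1*-/- libraries, against 10505, 9839 and 10131 in WT libraries. The groups lay side by side without overlap, and the difference was small, with a log2 fold change of 0.09 (SE 0.06, edgeR adjusted p = 0.410).

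Of the 5 genes of fatty acid synthesis, elongation and desaturation, *Fasn* and *Acaca* were lower in *Aif1*-/- BMMs by the test, and *Elovl6*, *Scd1* and *Scd2* had at most 1 count in an *Aif1*-/- library. *Fasn* encodes fatty acid synthase. It had 3498, 3593 and 3610 normalized counts in *Aif1*-/- libraries, against 4440, 4168 and 5600 in WT libraries, a log2 fold change of −0.41 (SE 0.10, edgeR adjusted p = 0.0183). *Acaca* encodes the acetyl-CoA carboxylase that supplies malonyl-CoA to it. It had 702, 771 and 782 normalized counts in *Aif1*-/- libraries, against 909, 863 and 959 in WT libraries, a log2 fold change of −0.28 (SE 0.08, edgeR adjusted p = 0.0452). DESeq2 gave an adjusted p of 0.0507. Neither gene had overlapping groups. Without *Aif1*-/- replicate 1, 2 or 3, the edgeR adjusted p of *Fasn* was 0.0926, 0.0818 and 0.0750, and that of *Acaca* was 0.262, 0.149 and 0.119. *Acaca* also missed the threshold without WT replicate 1 (0.106). Without WT replicate 3, *Fasn* had a log2 fold change of −0.27 (edgeR adjusted p = 0.00206).

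*Elovl6* was the member that differed most between the genotypes. Its product extends palmitate to stearate. It had raw counts of 1, 1 and 0 in *Aif1*-/- libraries, against 52, 30 and 59 in WT libraries. Over each group this was 2 counts against 141, 55.5-fold lower in *Aif1*-/- after scaling for depth (95% counting interval 15.1 to 463). *Elovl6* passed the filter on low counts through its WT libraries alone, so its test is no separate support and these counts are given as a description.

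*Scd1* and *Scd2* encode stearoyl-CoA desaturases, which turn stearate into oleate. *Scd2* had 0 raw counts in each *Aif1*-/- library, against 8, 18 and 30 in WT libraries. With the *Aif1*-/- group set to a floor of 3 counts in all, it was at least 14.7-fold lower. *Scd1* had 0 raw counts in each *Aif1*-/- library, against 1, 3 and 5 in WT libraries, which makes it at least 2.36-fold lower by the same floor. Neither gene was tested, since both failed the filter on low counts. With no filter *Scd2* passed edgeR's threshold and *Scd1* did not. The 2 genes are paralogs, and a read that fits both could have been placed at either. Counting intervals and floors cover counting error only.

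**Figure D3:**
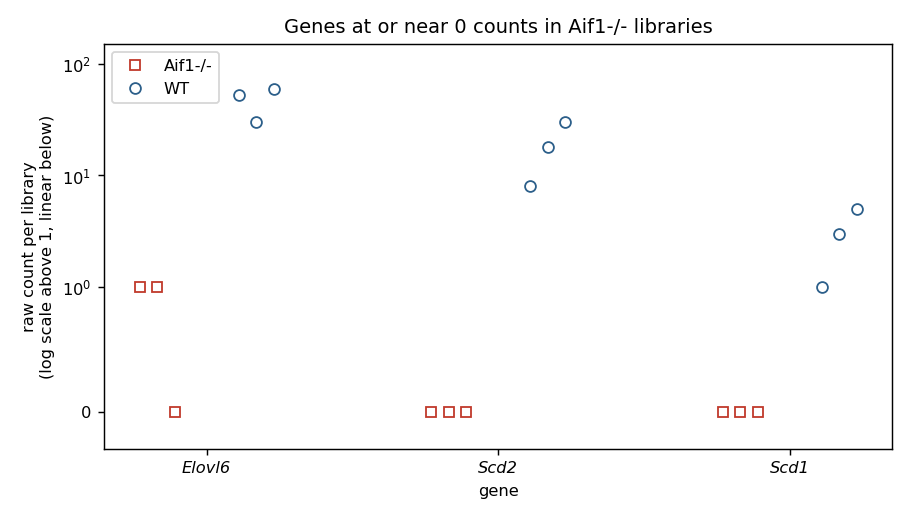
Raw counts per library (log scale above 1, linear below) of *Elovl6*, *Scd2* and *Scd1*, with the replicates of a genotype side by side. Squares are *Aif1*-/- and circles WT. *Elovl6* had at most 1 count in an *Aif1*-/- library, against at least 30 in a WT library, and *Scd2* and *Scd1* had 0 in every *Aif1*-/- library.

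The 5 fatty acid genes together gave 4201, 4366 and 4393 normalized counts in *Aif1*-/- libraries, against 5410, 5074 and 6639 in WT libraries. The mean fell by 24.3% in *Aif1*-/- BMMs and the groups did not overlap. *Fasn* made up most of this sum. The plot of log2 fold changes shows the 27 better covered members side by side: the genes higher in *Aif1*-/- BMMs had log2 fold changes of 0.33 to 0.40, and those lower, without *Elovl6*, of −0.41 to −0.28.

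**Figure D4:**
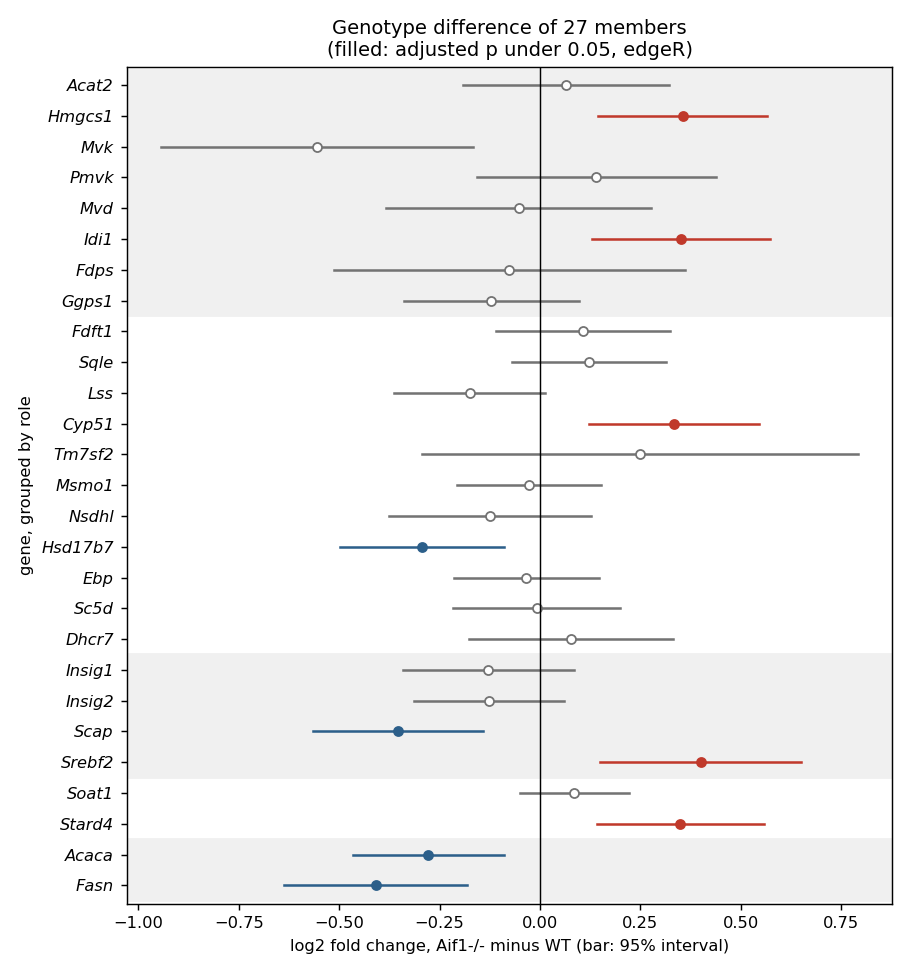
Log2 fold change (*Aif1*-/- minus WT) of 27 members with its 95% interval, grouped by role. Filled red points were higher and filled blue points lower in *Aif1*-/- at an edgeR adjusted p under 0.05, and open grey points did not pass. *Elovl6*, with 2 counts in all over the *Aif1*-/- libraries, is off this scale and left out, as are the untested *Scd1* and *Scd2*.

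Levels between genes were compared per kilobase of exon (RPKM, depth-scaled counts divided by exon length). *Soat1* had the highest level of the 30 genes in both genotypes, 46.9 ± 0.977 RPKM in *Aif1*-/- and 44.2 ± 1.45 RPKM in WT (SD, n = 3 each). *Srebf2* was at 27.5 ± 0.349 RPKM in *Aif1*-/- and 20.9 ± 3.85 RPKM in WT (SD, n = 3 each), and *Insig1* at 21.1 ± 0.889 RPKM in *Aif1*-/- and 23.1 ± 2.97 RPKM in WT (SD, n = 3 each). *Srebf2* stood above *Insig1* in each *Aif1*-/- library. In each WT library it stood below *Insig1*, with a ratio of 0.845 to 0.966. *Hmgcs1* had the highest level of the sterol synthesis enzymes in *Aif1*-/- BMMs, at 15.9 ± 0.235 RPKM, against 12.5 ± 1.61 RPKM in WT (SD, n = 3 each). In WT, *Ebp* was at 14.4 ± 0.730 RPKM (SD, n = 3) and above *Hmgcs1* in each library. At the other end, *Fdps* was at 1.30 ± 0.0780 RPKM in *Aif1*-/- and 1.38 ± 0.319 RPKM in WT, and *Tm7sf2* at 0.864 ± 0.129 RPKM in *Aif1*-/- and 0.723 ± 0.194 RPKM in WT (SD, n = 3 each). Exon length was taken over all annotated transcripts, so a gene with a long rare transcript, such as *Lss* with 10787 bases, has its level understated.

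Some members overlap genes on the opposite strand, and the sources do not settle whether counting kept the strands apart. The share of exon bases so overlapped was 18.3% for *Fdft1* (with *Ctsb*), 13.2% for *Scap*, 12.1% for *Hmgcs1*, 9.22% for *Idi1*, 5.44% for *Ggps1*, 3.76% for *Cyp51* and 3.53% for *Lss*. Reads from these stretches could belong to either gene.

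Other genes of the same lipid pathways were then counted from lists of neighbouring steps. Of 14 genes that use isoprenoids for purposes other than sterols, 2 were higher (14.3% called, against 18.6% of all tested genes) and none was lower. *Fnta*, the shared alpha subunit of the farnesyl and geranylgeranyl transferases, had a log2 fold change of 0.42 (SE 0.10, edgeR adjusted p = 0.0118), and *Coq2*, of ubiquinone synthesis, one of 0.37 (SE 0.10, edgeR adjusted p = 0.0273). Without *Aif1*-/- replicate 1 or 3 the adjusted p of *Fnta* was 0.0633 and 0.0504. That of *Coq2* was 0.102, 0.132 and 0.0907 without *Aif1*-/- replicate 1, 2 or 3 and 0.0718 without WT replicate 1. *Rabggta*, of Rab prenylation, and *Rce1*, the protease that trims prenylated proteins, had log2 fold changes of 0.35 (edgeR adjusted p = 0.112) and −0.33 (edgeR adjusted p = 0.216).

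None of the 13 genes of SREBP cleavage and of sterol-regulated protein degradation passed, by edgeR or by DESeq2. Of all tested genes, 18.6% passed by edgeR and 19.4% by DESeq2. In the list, 2 genes had an unadjusted edgeR p under 0.05. The genes of the list with the smallest adjusted p were *Erlin1* (log2 fold change −0.20, edgeR adjusted p = 0.0635), *Rnf139* (0.24, edgeR adjusted p = 0.0739) and *Syvn1* (−0.22, edgeR adjusted p = 0.189), whose products act in degradation from the endoplasmic reticulum. *Mbtps1*, the gene of the first protease that cuts SREBPs, had a log2 fold change of −0.08 (SE 0.08, edgeR adjusted p = 0.584). *Erlin1* passed under 6 of 14 alternatives.

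Of 20 further tested genes of fatty acid and glycerolipid synthesis, 3 were higher and 5 were lower (40% called, against 18.6% of all tested genes). *Acacb*, the mitochondrial acetyl-CoA carboxylase gene, had 21.2, 26.6 and 14.5 normalized counts in *Aif1*-/- libraries, against 121, 132 and 105 in WT libraries, with a log2 fold change of −2.51 (SE 0.26, edgeR adjusted p = 6.50e-05). *Mid1ip1*, whose product promotes the polymerization of acetyl-CoA carboxylase, had a log2 fold change of −0.78 (SE 0.10, edgeR adjusted p = 0.000231), and *Fads2*, a desaturase gene of polyunsaturated fatty acids, one of −0.53 (SE 0.11, edgeR adjusted p = 0.00657). *Hacd2*, a dehydratase gene of very long chain fatty acid elongation, went the other way, with a log2 fold change of 0.78 (SE 0.11, edgeR adjusted p = 0.000795). These 4 genes passed under every one of the 14 alternatives. Without any one of the *Aif1*-/- libraries, 1 gene of the list was higher and 4 were lower, and 11.5% to 11.9% of all tested genes passed.

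Of 11 genes outside the members that move or store cholesterol inside the cell, 4 were lower (36.4%, against 10.5% of all tested genes). None was higher, against 8.04% of all tested genes. This list leaves out 2 members with such a role, *Stard4*, which was higher, and *Soat1*, which did not pass. With the covariate for reads outside genes or without WT replicate 2, 5 genes of the list were lower and 1 was higher. Of all tested genes, 31.7% and 22.5% then passed in either direction. Without WT replicate 3, 4 were lower and 2 were higher, and 27.6% of all tested genes passed. *Nceh1*, a hydrolase gene of cholesteryl ester breakdown, had 8202, 8478 and 7812 normalized counts in *Aif1*-/- libraries, against 12606, 11343 and 12828 in WT libraries, with a log2 fold change of −0.59 (SE 0.07, edgeR adjusted p = 0.000209). The sterol carrier genes *Stard5*, *Stard3* and *Gramd1b* had log2 fold changes of −0.43, −0.28 and −0.22 (edgeR adjusted p = 0.0120, 0.0222 and 0.0291). Without any one of the *Aif1*-/- libraries, 1 gene of this list passed, and 11.5% to 11.9% of all tested genes did. The edgeR adjusted p was then 0.0624 to 0.0793 for *Stard5*, 0.0856 to 0.145 for *Stard3* and 0.132 to 0.208 for *Gramd1b*. *Gramd1b* also missed the threshold without WT replicate 1 (0.0851).

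Of 7 tested genes of the liver X receptors (LXRs), the receptors that sense oxysterols, and their targets, 3 were lower and 1 was higher (57.1% called, against 18.6% of all tested genes). *Abcg1* and *Abca1*, the cholesterol exporter genes, had log2 fold changes of −1.61 (SE 0.08, edgeR adjusted p = 5.51e-07) and −0.48 (SE 0.07, edgeR adjusted p = 0.000765). *Mylip*, whose product marks the LDL receptor for degradation, was at −0.46 (SE 0.12, edgeR adjusted p = 0.0289). Its adjusted p was 0.111, 0.0589 and 0.148 without *Aif1*-/- replicate 1, 2 or 3 and 0.0714 without WT replicate 1. *Nr1h3*, which encodes the receptor LXR-alpha, had 120, 121 and 101 normalized counts in *Aif1*-/- libraries, against 16.1 to 17.8 in WT libraries, with a log2 fold change of 2.72 (SE 0.23, edgeR adjusted p = 1.59e-05). *Nr1h2*, which encodes the other receptor, LXR-beta, had a log2 fold change of −0.11 (SE 0.10, edgeR adjusted p = 0.568), and the target genes *Apoe* and *Lpcat3* had values of −0.25 and −0.0075 (edgeR adjusted p = 0.816 and 0.971).

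**Figure D5:**
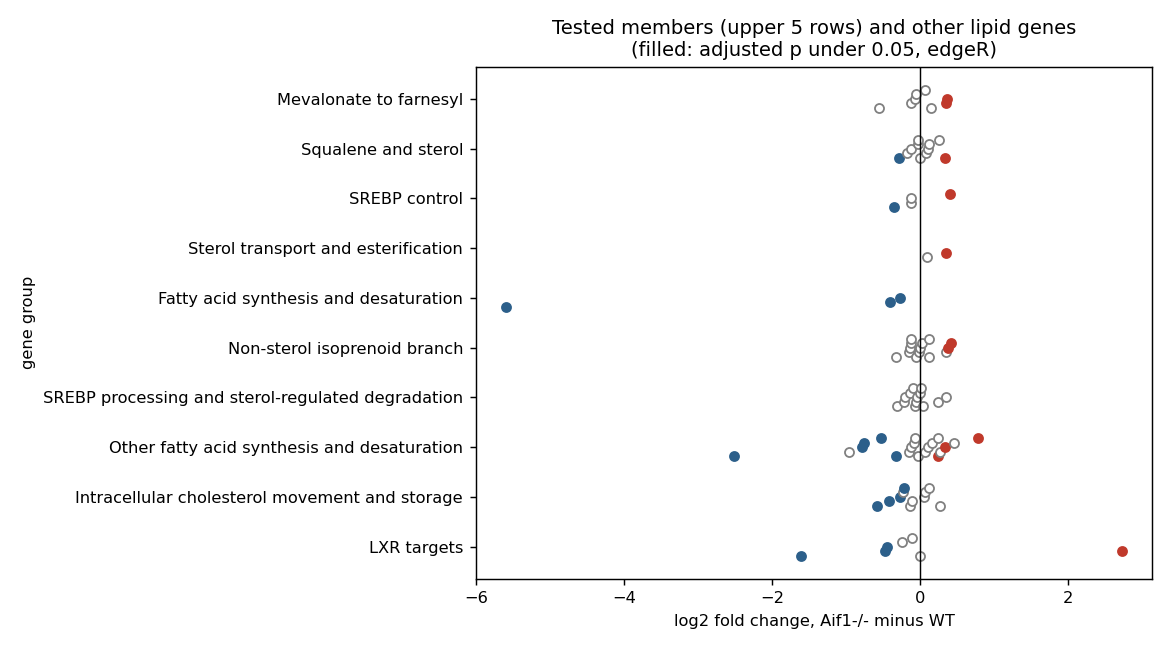
Log2 fold change (*Aif1*-/- minus WT) of every tested gene in the 5 roles of the members (upper rows) and in 5 lists of other lipid genes (lower rows), 1 point a gene. Filled red points were higher and filled blue points lower in *Aif1*-/- at an edgeR adjusted p under 0.05. *Elovl6* (−5.59, tested through its WT counts alone), *Acacb* (−2.51) and *Nr1h3* (2.72) lie farthest from 0.

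Across the 14 alternatives, the 9 called members other than *Elovl6* kept their direction. Without any one of the *Aif1*-/- libraries no member passed the test in either direction other than *Elovl6* and *Scd2*, which passed the filter through their WT libraries alone. The number of all genes called then was 2040 to 2140, against 3231 with all libraries. Without WT replicate 1 the members called were *Hmgcs1*, *Idi1* and *Stard4* as higher and *Elovl6*, *Fasn*, *Scap* and *Scd2* as lower. Without WT replicate 2 they were *Hmgcs1* and *Stard4* as higher and *Acaca*, *Elovl6*, *Fasn*, *Hsd17b7*, *Mvk* and *Scap* as lower. Without WT replicate 3 they were the same 10 as with all libraries.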

How the data were processed

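Raw counts per gene, with no normalization, were deposited. To make them, the authors ran Trim Galore 0.5 on the single-end reads, TopHat2 2.0.13 against GRCm38 with each read kept at 1 location at most, and HTSeq 0.6.1p1 on Ensembl release 84 genes. Tools and build are from the submitters' processing notes and the study's methods. Rows that name no gene (reads outside genes, 25.5% to 40.4% of counted reads, and ambiguous reads, 4.55% to 7.15%) stayed out of library sizes and tests.

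Samples were grouped by the genotype in their labels. Differences between *Aif1*-/- and WT libraries were tested with edgeR 4.0.16 (R 4.3.3, limma 3.58.1) by the quasi-likelihood test on genotype, with TMM scaling and edgeR's filter by expression. Standard errors were derived from the F value (absolute log2 fold change over its square root). Symbols and exon lengths came from GENCODE M21 on GRCm38, which matched 47224 of 47729 genes, and the 505 others held 0.160% of counts. With 3 libraries a genotype, an exact two-sided permutation test of 1 gene cannot go below p = 0.1, so it was not used for calls. The fits were tested on simulated data. Alternatives were DESeq2 1.42.0, other scalings and filters, a replicate block, a covariate for reads outside genes, and each library left out. All 30 members are named, and up to 4 genes of each other list, those with the smallest adjusted p, plus *Srebf1* and *Mbtps1*. The members and lists were chosen with earlier results of these data known. Protein sequences were not used here. A list of other sterol genes and 2 marker lists are not reported here.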

Additional observations from a re-analysis of the deposited data

How the results depend on the processing

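The count of members called was 5 higher and 5 lower. It was within 1.5 times of these values under DESeq2, the other scalings and filters, the covariate and the replicate block, and moved when a library was left out, to 0 to 5 higher and 2 to 6 lower. Over all tested genes, leaving out a library gave 874 to 2404 higher and 1166 to 2485 lower, against 1399 and 1832, and a covariate for reads outside genes gave 2678 higher and 2839 lower. Every alternative shifted the median log2 fold change of all genes by at most 0.014. Same-numbered libraries did not deviate together (correlations 0.06, −0.08 and −0.09), and only the libraries numbered 1 correlated best with each other. The replicate block called 4 members higher and 4 lower and 2872 genes in all, losing *Idi1* (edgeR adjusted p = 0.0568), *Hsd17b7* (0.0776) and *Acaca* (0.0735) and gaining *Mvk* (0.0286). Among the other named genes it lost *Coq2* (0.0533), *Gramd1b* (0.0607) and *Mylip* (0.0599). Genes near 0 changed sign, none of them called, from a negative value unless stated. With the covariate, *Mvd* was at 0.0083, *Fdps* at 0.0214 and *Sc5d* at 0.0049, and *Sc5d* was at 0.0024 with no filter. Over the fits with a library left out, *Mvd* ran from −0.161 to 0.0751, *Fdps* from −0.237 to 0.107, *Sc5d* from −0.0655 to 0.0774, *Msmo1* from −0.0792 to 0.0168, *Ebp* from −0.0658 to 0.00998, *Mbtps1* from −0.127 to 0.0086, and *Acat2*, positive with all libraries, from −0.0476 to 0.155. The causes were not tested. Depth limits *Elovl6*, *Scd1* and *Scd2*, whose low counts allow only wide or one-sided bounds.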
